A study of Homo sapiens with 6 samples.

Results

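The data concern 9 transporters that carry amino acids, glutamine among them, across the plasma membrane of RPMI-8402, an established human line of T cell acute lymphoblastic leukaemia (T-ALL). They were chosen by name as SLC1A5, SLC1A4, SLC3A2, SLC7A5, SLC7A6, SLC7A1, SLC38A1, SLC38A2 and SLC38A5. These 9 names matched 10 of 63677 gene identifiers, because SLC38A5 is listed under 2 and its identifier ENSG00000269587 had 0 counts in every sample. All 9 genes had counts and all 9 were among the 15492 genes with enough counts to test.

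Total RNA from 6 samples was sequenced as strand-specific libraries. In 3 samples doxycycline had induced the guide RNAs for MYC over 72 hours, and 3 samples had received DMSO, the solvent. Both groups carried Cas9 stably, were grown in the same medium with tetracycline-free serum, and bear the genotype label MYC_KO, so the groups differ by doxycycline and by what it induces. The labels name no sample given doxycycline without guides, do not say whether the line is 1 clone, and do not say that replicates were separate cultures. The p-values therefore cover the spread among these 6 samples alone, and that spread may be technical.

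Amino acid transporters set how much glutamine, leucine, arginine and other amino acids a dividing cell can take in. Glutamine gives its amide nitrogen to nucleotides and asparagine and its carbon, as glutamate, to the citric acid cycle, and some of it is traded outwards for leucine by the exchanger LAT1. The transcription factor MYC is known from other cancer cells to raise SLC1A5, SLC7A5 and SLC38A5, and T cells raise SLC7A5 when they are activated. When amino acids run short, the factor ATF4 raises several of the same transporters.

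Total counts per sample were 25819386 to 26214598 with doxycycline and 23121255 to 25412493 with DMSO. MYC itself was not lower with doxycycline. It stood at 459, 431 and 431 CPM (counts per 1000000 after TMM scaling) in doxycycline replicates 1, 2 and 3, against 409, 422 and 407 CPM in DMSO replicates 1, 2 and 3. Its log2 fold change was 0.09 with an SE of 0.049 (edgeR quasi-likelihood test, adjusted p = 0.160), and with upper-quartile scaling it passed as higher (0.14, edgeR adjusted p = 0.0357), as it did when scaled by library size alone. A gene cut by Cas9 and repaired with a small insertion or deletion still gives reads that are counted, so the MYC level is a partial check of the labels. All 10 T-ALL markers searched were expressed, with summed levels of 3170 to 3350 CPM with doxycycline and 3080 to 3210 CPM with DMSO. CD7 rose by 0.48 and CD5 by 0.23 on the log2 scale (edgeR adjusted p = 6.52e-07 and 9.38e-04). The other 8 were not called, and 13.8% of all tested genes were called higher. Among 18 markers of other cells, MS4A1, HBB, EPCAM, KRT19 and COL1A2 had 0 counts in every sample. Summed levels were 10.7 to 12.4 CPM with doxycycline and 6.11 to 8.03 CPM with DMSO for 4 B cell markers, and 1.64 to 1.97 CPM with doxycycline and 0.909 to 1.19 CPM with DMSO for 4 myeloid markers. For 4 erythroid markers they were 0.0762 to 0.152 CPM with doxycycline and 0.0873 to 0.198 CPM with DMSO, and for 3 epithelial markers at most 0.0381 CPM with doxycycline and 0.0793 CPM with DMSO. For 3 fibroblast markers they were 47.3 to 53.0 CPM with doxycycline and 39.9 to 40.3 CPM with DMSO, nearly all of it COL1A1. Among the markers of other cells with enough counts to test, CD79A, MPO and COL1A1 rose (edgeR) and PAX5 did not pass. The part of these markers in the results on transporters was not tested.

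RefSeq (GRCh38.p14) held 15 promoter windows for the 9 transporters, each of 300 bases, from 250 before to 50 after a start site. They were searched on both strands for the E-box CACGTG, which MYC binds with its partner MAX, and for TGATGNAAN, the amino acid response element that ATF4 binds with C/EBP partners. The E-box was in 3 of the 15 windows, 1 each of SLC38A5, SLC7A5 and SLC1A5, and in 7.26% of all 35116 promoter windows of that length. The amino acid response element was in 5 of the 15, 1 each of SLC38A1, SLC7A1, SLC1A4, SLC1A5 and SLC3A2, and in 3.61% of all windows. The 4 sequences below show each motif in a transporter that fell with doxycycline (SLC38A5, SLC38A1) and in another that was not called (SLC7A5, SLC7A1), with the motif in capitals and read 5′ to 3′ on the strand of the transcript. The E-box starts at base 45 of the SLC38A5 window (chrX:48470211-48470510, minus strand) and at base 121 of the SLC7A5 window (chr16:87869458-87869757, minus strand). The response element starts at base 247 of the SLC38A1 window (chr12:46266467-46266766, minus strand, 1 of 2 windows of that gene) and at base 258 of the SLC7A1 window (chr13:29595639-29595938, minus strand).
SLC38A5: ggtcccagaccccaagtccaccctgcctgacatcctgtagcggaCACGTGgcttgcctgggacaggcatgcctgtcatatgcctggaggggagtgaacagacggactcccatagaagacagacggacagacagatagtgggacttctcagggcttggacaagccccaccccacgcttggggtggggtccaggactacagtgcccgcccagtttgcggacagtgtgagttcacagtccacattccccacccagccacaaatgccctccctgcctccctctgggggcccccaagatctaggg
SLC7A5: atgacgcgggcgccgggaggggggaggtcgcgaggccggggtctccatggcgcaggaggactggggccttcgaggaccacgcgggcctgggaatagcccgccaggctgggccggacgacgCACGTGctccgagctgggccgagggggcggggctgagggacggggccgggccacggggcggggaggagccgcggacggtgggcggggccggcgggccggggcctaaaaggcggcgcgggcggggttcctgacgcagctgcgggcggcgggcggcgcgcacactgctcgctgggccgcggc
SLC38A1: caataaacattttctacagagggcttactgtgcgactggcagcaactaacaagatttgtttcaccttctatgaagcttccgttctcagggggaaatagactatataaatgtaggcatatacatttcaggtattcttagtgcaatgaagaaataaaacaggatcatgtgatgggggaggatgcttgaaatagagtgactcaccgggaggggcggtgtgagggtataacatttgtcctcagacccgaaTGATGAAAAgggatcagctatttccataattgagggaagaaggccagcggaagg
SLC7A1: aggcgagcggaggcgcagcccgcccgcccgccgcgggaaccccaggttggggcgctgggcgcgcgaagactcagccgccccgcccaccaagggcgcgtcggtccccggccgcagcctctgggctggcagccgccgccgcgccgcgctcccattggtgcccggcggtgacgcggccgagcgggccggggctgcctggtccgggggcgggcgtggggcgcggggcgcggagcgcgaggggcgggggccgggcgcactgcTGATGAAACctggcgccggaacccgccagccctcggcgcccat
None of the 15 windows held both motifs, and a match says only that the letters are there.

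Of the 9 transporters, 2 fell with doxycycline and 0 rose. SLC38A5 fell by 0.34 on the log2 scale and SLC38A1 by 0.18, or 20.8% and 12% of the mean level. The SE were 0.065 and 0.058, and the other 7 transporters did not pass the test (edgeR quasi-likelihood test, Benjamini-Hochberg adjusted p under 0.05 over all tested genes). Over all 15492 genes, 15.5% were called lower and 13.8% higher, so 2 of 9 is near the background and is no result about transporters as a group. With upper-quartile scaling the split over all genes was 2871 higher and 1585 lower, against 2137 higher and 2408 lower as reported, and 1 transporter, SLC38A5, was called. The median log2 fold change of the 9 was -0.03, beside -0.001 over all tested genes, with 6 values below 0 and 3 above. Together the 9 transporters took 1789 to 1797 CPM with doxycycline and 1802 to 1849 CPM with DMSO.

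**Figure D1:**
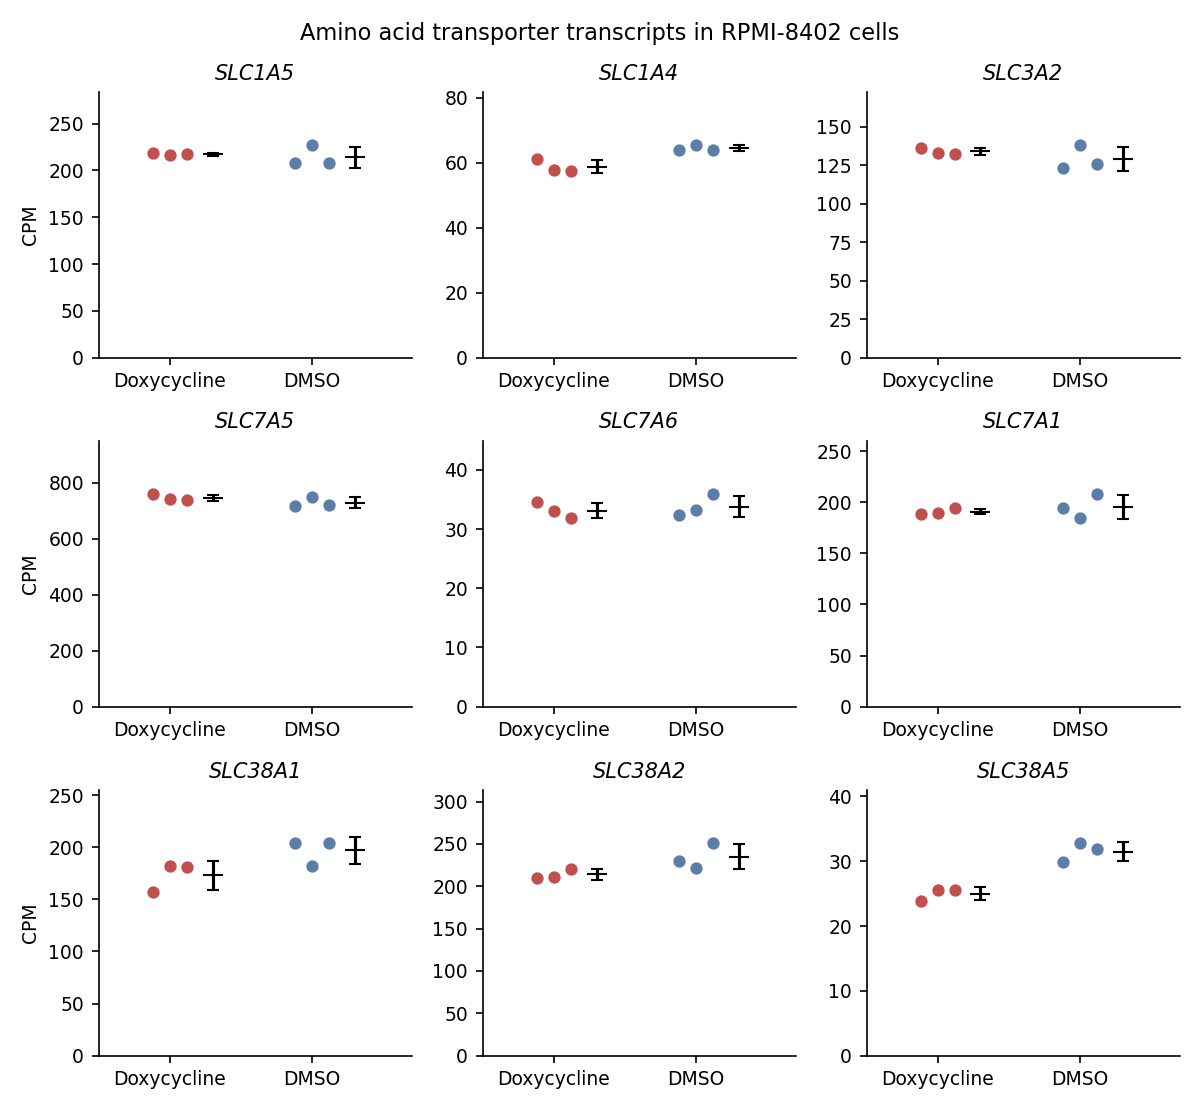
Level of each transporter (y axis, CPM after TMM scaling, from 0) in the 3 doxycycline samples and the 3 DMSO samples, one point per sample, with the mean and SD as a bar beside them. The doxycycline points of SLC38A5 lie between 23.8 and 25.6 CPM, all below the DMSO points at 29.9 to 32.8 CPM, while those of SLC7A5 and SLC1A5 overlap.

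The system N and system A carriers of the SLC38 family couple amino acid uptake to sodium. SLC38A5 encodes SNAT5, a system N carrier that moves glutamine, asparagine, histidine and serine and exchanges protons. It stood at 23.8, 25.6 and 25.6 CPM in doxycycline replicates 1, 2 and 3, against 29.9, 32.8 and 31.9 CPM in DMSO replicates 1, 2 and 3. Every doxycycline sample was below every DMSO sample. The means were 25.0 ± 1.03 CPM with doxycycline and 31.5 ± 1.5 CPM with DMSO (SD, n = 3 each), and the 95% interval of the log2 fold change ran from -0.47 to -0.20 (edgeR adjusted p = 3.91e-04). These values rest on 627 to 684 counts per doxycycline sample and 730 to 795 per DMSO sample. SLC38A5 was called lower under all 15 alternatives run, with log2 fold changes from -0.40 to -0.27. The bulk RNA cannot tell fewer cells that express a transporter from less of its RNA per cell.

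SLC38A1 encodes SNAT1, a system A carrier of glutamine and alanine. It stood at 157, 182 and 181 CPM in doxycycline replicates 1, 2 and 3, against 204, 182 and 204 CPM in DMSO replicates 1, 2 and 3. The groups overlapped, because DMSO replicate 2 was at the level of doxycycline replicates 2 and 3. Means were 173 ± 14.3 CPM with doxycycline and 197 ± 12.6 CPM with DMSO (SD, n = 3 each; edgeR adjusted p = 0.0183). The call was lost without doxycycline replicate 1 (-0.12, edgeR adjusted p = 0.165), without DMSO replicate 1 (-0.16, 0.0982), under upper-quartile scaling (-0.14, 0.0767) and under scaling by library size alone (-0.14, 0.0886).

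SLC38A2 encodes SNAT2, the system A carrier that amino acid shortage is known to raise, and its gene neighbours SLC38A1 on chromosome 12. It stood at 210, 211 and 221 CPM in doxycycline replicates 1, 2 and 3, against 230, 222 and 251 CPM in DMSO replicates 1, 2 and 3. The groups did not overlap, yet the test was missed at a log2 fold change of -0.13 (SE 0.052, edgeR adjusted p = 0.0549). Groups did not overlap, with doxycycline below, for 3 of 9 transporters, SLC38A5, SLC38A2 and SLC1A4, beside 21.0% of all tested genes (41.7% in either direction). In 0 of 9 was doxycycline above DMSO in every sample, beside 20.7% of all genes. SLC38A2 passed without DMSO replicate 2 (-0.17, edgeR adjusted p = 0.0137), without both doxycycline replicate 1 and DMSO replicate 2 (-0.16, 0.0425) and with no filter on low counts (-0.15, 0.0306). The authors' deposited table calls it lower too, with a log2 fold change of -0.14 (adjusted p = 0.0360 by DESeq2), and there 3 of 9 transporters were lower and 0 higher, beside 15.6% and 9.79% of 13767 genes.

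The exchangers of the SLC1 family swap neutral amino acids across the membrane with sodium. SLC1A5 encodes ASCT2, a main route of glutamine into proliferating cells. It stood at 219, 216 and 217 CPM in doxycycline replicates 1, 2 and 3, against 208, 227 and 208 CPM in DMSO replicates 1, 2 and 3. The doxycycline values lay inside the DMSO range, with a log2 fold change of 0.02 and a 95% interval from -0.08 to 0.12 (edgeR adjusted p = 0.802).

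SLC1A4 encodes ASCT1, which prefers alanine, serine, cysteine and threonine. It stood at 61.1, 57.9 and 57.4 CPM in doxycycline replicates 1, 2 and 3, against 63.8, 65.4 and 64.0 CPM in DMSO replicates 1, 2 and 3. All doxycycline samples were below all DMSO samples, and the test was missed (log2 fold change -0.13, SE 0.054, edgeR adjusted p = 0.0679). The ratio of SLC1A5 to SLC1A4 was 3.58, 3.73 and 3.78 with doxycycline and 3.26, 3.48 and 3.24 with DMSO, without overlap, a log2 difference of 0.15 (exact two-sided permutation test over samples, p = 0.10, the smallest that 3 against 3 can give; adjusted p = 0.35 over 7 pairs).

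SLC3A2 encodes CD98, the heavy chain that brings several light chains to the membrane. It stood at 136, 133 and 132 CPM in doxycycline replicates 1, 2 and 3, against 123, 138 and 126 CPM in DMSO replicates 1, 2 and 3. The groups overlapped, and the 95% interval of the log2 fold change ran from -0.06 to 0.16 (edgeR adjusted p = 0.487).

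SLC7A5 encodes the light chain LAT1, which takes in leucine and other large neutral amino acids. It stood at 759, 743 and 737 CPM in doxycycline replicates 1, 2 and 3, against 717, 750 and 720 CPM in DMSO replicates 1, 2 and 3. DMSO replicate 2 lay within the doxycycline range, and the 95% interval ran from -0.07 to 0.13 (edgeR adjusted p = 0.648). Its pseudogene SLC7A5P1 stood at 1.93 CPM with doxycycline and 1.61 CPM with DMSO and SLC7A5P2 had 0 counts, and how reads shared with these copies were counted is not given.

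SLC7A6 encodes the light chain y+LAT2, which exports arginine in exchange for neutral amino acids. It stood at 34.5, 33.0 and 31.9 CPM in doxycycline replicates 1, 2 and 3, against 32.4, 33.2 and 35.9 CPM in DMSO replicates 1, 2 and 3. The groups overlapped, with a 95% interval from -0.16 to 0.10 (edgeR adjusted p = 0.761). SLC7A6OS, which overlaps it on the other strand in GENCODE 29, stood at 5.94 CPM with doxycycline and 5.10 CPM with DMSO. The strand setting of the counting is not given, so reads of the pair may be mixed.

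Light chains reach the membrane bound to the heavy chain, so their levels were also set as ratios to it. The ratio of SLC7A5 to SLC3A2 was 5.57, 5.58 and 5.60 with doxycycline and 5.84, 5.44 and 5.70 with DMSO, a log2 difference of -0.02 (exact permutation test, p = 0.70). The 3 doxycycline ratios lay within the DMSO range. For SLC7A6 to SLC3A2 the log2 difference was -0.08 (exact permutation test, p = 0.40), and for SLC7A5 to SLC7A6 it was 0.06 (exact permutation test, p = 0.50). Within the SLC38 family the ratio of SLC38A5 to SLC38A2 was 0.113, 0.121 and 0.116 with doxycycline and 0.130, 0.148 and 0.127 with DMSO, without overlap (log2 difference -0.20, exact permutation test, p = 0.10). The log2 differences were -0.15 for SLC38A5 to SLC38A1 (exact permutation test, p = 0.20) and -0.05 for SLC38A1 to SLC38A2 (p = 0.50). None of the 7 pairs had an adjusted p under 0.35, and 3 samples against 3 cannot pass the threshold.

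SLC7A1 encodes CAT1, the uniporter that takes in arginine, lysine and ornithine without sodium. It stood at 189, 190 and 194 CPM in doxycycline replicates 1, 2 and 3, against 194, 185 and 208 CPM in DMSO replicates 1, 2 and 3. The groups overlapped, with a 95% interval from -0.14 to 0.07 (edgeR adjusted p = 0.656).

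**Figure D2:**
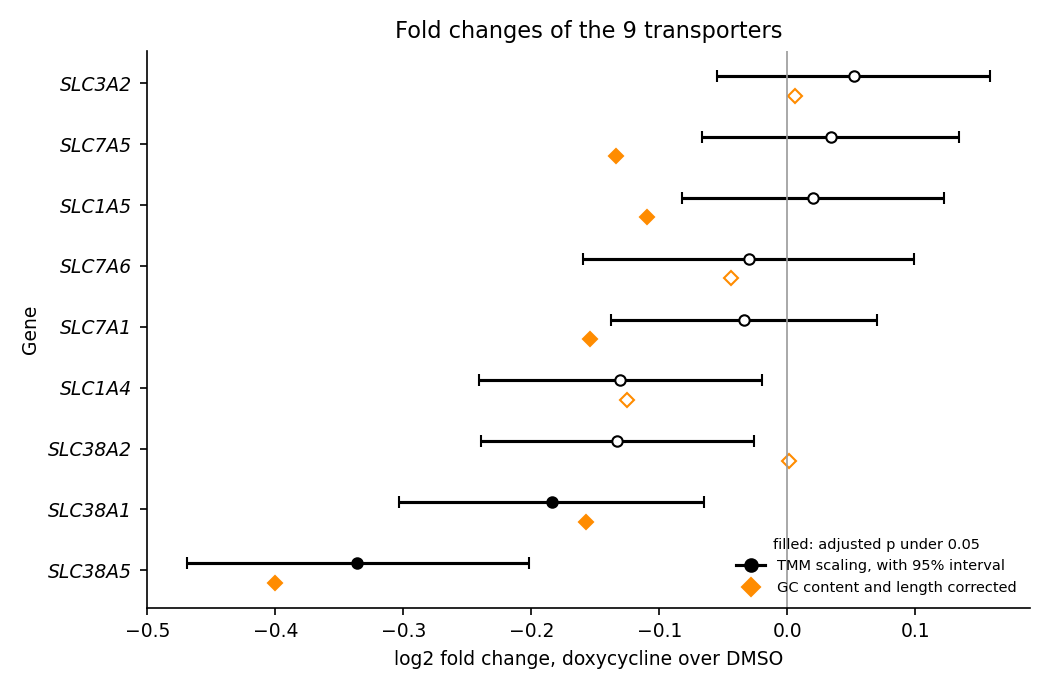
Log2 fold change of each transporter, doxycycline over DMSO (x axis), one row per gene, from edgeR with TMM scaling (circles, with 95% intervals) and with GC content and length corrected (diamonds); filled symbols have an adjusted p under 0.05. SLC38A5 and SLC38A1 are filled in both fits, while SLC7A5 goes from 0.03 to -0.13 and SLC38A2 from -0.13 to 0.00 with the correction.

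Several of these values depended on GC content and transcript length. With both corrected, 5 of 9 transporters fell and 0 rose, beside 11.4% lower and 10.8% higher of 15036 genes, and the median of the 9 was -0.13. SLC38A5 fell by 0.40 (edgeR adjusted p = 7.72e-05), SLC38A1 by 0.16 (0.0146), SLC7A1 by 0.15 (0.0126), SLC7A5 by 0.13 (0.0157) and SLC1A5 by 0.11 (0.0436). SLC38A2 was at 0.00 (edgeR adjusted p = 0.991) and SLC1A4 at -0.13 (0.0542). The GC content of the longest transcript was 61.3% for SLC1A5 and 61.1% for SLC7A5, above 89.9% and 89.4% of tested genes, and 38.1% for SLC38A2, above 8.41% of them. GC content did not order all the shifts. SLC7A1 went from -0.03 to -0.15 at 52.7%, above 64.0% of tested genes. SLC3A2 went only from 0.05 to 0.01 at 57.4%, above 78.6% of them. These 2 also differed in the length of the longest transcript, which the correction fits too, at 7347 bases for SLC7A1 and 2222 for SLC3A2. The share of each term in the shifts was not tested. Real changes that track GC content or length are taken out by the correction too.

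Levels between genes were compared per kilobase of exon, as RPKM (CPM divided by kilobases), with GENCODE 29 exon lengths. SLC7A5 was highest, at 157 ± 2.41 RPKM with doxycycline and 154 ± 3.90 RPKM with DMSO, and SLC7A6 lowest, at 4.36 ± 0.170 RPKM with doxycycline and 4.46 ± 0.239 RPKM with DMSO (SD, n = 3 each). The span from highest to lowest was 36.0-fold with doxycycline and 34.5-fold with DMSO. Between them came, in falling order of the DMSO level, SLC1A5, SLC38A2, SLC7A1, SLC3A2, SLC38A1, SLC1A4 and SLC38A5. SLC7A1 was at 24.8 ± 0.352 RPKM with doxycycline and 25.4 ± 1.53 RPKM with DMSO, and SLC3A2 at 25.8 ± 0.451 RPKM with doxycycline and 24.9 ± 1.53 RPKM with DMSO (SD, n = 3 each). Their order was thus turned round with doxycycline, where their samples did not overlap, while with DMSO they did. No other neighbours in the order overlapped in either group. SLC38A5 was at 6.22 ± 0.255 RPKM with doxycycline and 7.86 ± 0.373 RPKM with DMSO (SD, n = 3 each). With the length of the longest transcript instead, SLC3A2 was at 60.2 RPKM with doxycycline and 58.0 RPKM with DMSO and ranked just after SLC1A5. On that scale no neighbours overlapped with doxycycline, and with DMSO SLC7A1 overlapped SLC38A1 and SLC38A5 overlapped SLC1A4.

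**Figure D3:**
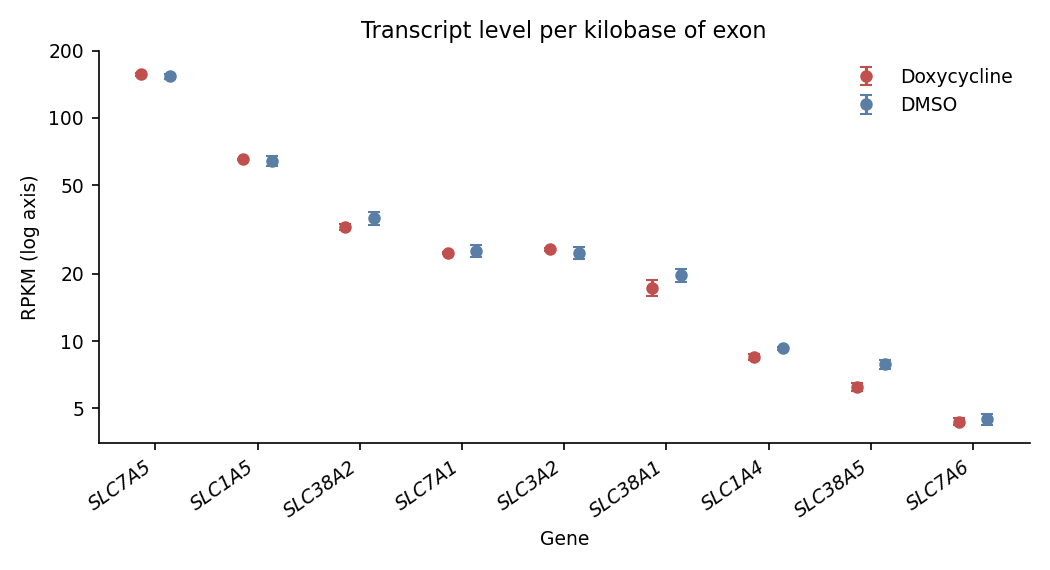
Level of each transporter per kilobase of exon (y axis, RPKM, log scale), as mean and SD of the 3 doxycycline samples and the 3 DMSO samples, genes in falling order of the DMSO level. SLC7A5 stands at 157 RPKM with doxycycline and 154 RPKM with DMSO, and SLC7A6 at 4.36 RPKM with doxycycline and 4.46 RPKM with DMSO.

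Among 9660 genes with a mean log2 CPM of at least 3, those closest to SLC38A5 over the 6 samples, by the root mean square difference of log2 CPM after each gene's mean was taken off, were TSR1, SAP30, RBM8A, DCAF13 and MRPS18C. Their differences were 0.0204 to 0.0282, and their own log2 fold changes -0.37 to -0.30. Closest to SLC38A1 were CMPK1, KPNA5, TCAIM, EXOC6 and NAA50, at 0.0192 to 0.0262. This is a description of 6 samples.

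Other transporters of the plasma membrane moved in both directions. Of 33 listed, 18 had enough counts, of which 6 rose and 3 fell, or 33.3% and 16.7%, beside 13.8% higher and 15.5% lower of all tested genes. Their median log2 fold change was 0.15. SLC43A2, a sodium-independent carrier of large neutral amino acids, rose by 0.29 (SE 0.058), at 68.8 ± 3.65 CPM with doxycycline and 56.2 ± 2.95 CPM with DMSO (SD, n = 3 each; edgeR adjusted p = 4.45e-04). SLC1A7, a glutamate carrier, rose by 0.24, the taurine carrier SLC6A6 by 0.17, SLC6A20, a proline carrier, by 1.04 and the light chain SLC7A8 by 1.0. SLC6A20 and SLC7A8 were at most 1.20 CPM on average in either group. SLC6A15, a carrier of branched-chain amino acids and proline, fell by 0.37, the arginine and lysine carrier SLC7A3 by 0.31 and the proton-coupled SLC36A4 by 0.22. SLC7A11, which with CD98 imports cystine for glutamate, was at 7.24 ± 0.413 CPM with doxycycline and 6.57 ± 0.832 CPM with DMSO (SD, n = 3 each) and was not called. With GC content and length corrected 2 rose, SLC6A20 and SLC7A8, and 2 fell, SLC7A3 and 1 gene not called before, beside 10.8% higher and 11.4% lower of all genes. SLC6A15 and SLC36A4 did not pass there, and SLC7A8 and SLC36A4 did not pass with DESeq2 (adjusted p = 0.0711 and 0.0501). Without DMSO replicate 1, 2 rose, and without doxycycline replicate 3, 1 fell.

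Of 15 carriers of lysosomes and mitochondria 13 were tested, of which 2 rose and 4 fell (15.4% and 30.8%), beside 13.8% higher and 15.5% lower of all tested genes, and their median was -0.03. SLC25A29, a mitochondrial carrier of arginine and lysine, rose by 0.47 (SE 0.047), at 187 ± 2.92 CPM with doxycycline and 135 ± 1.71 CPM with DMSO (SD, n = 3 each; edgeR adjusted p = 1.08e-07). The lysosomal arginine carrier PQLC2 rose by 0.24. The mitochondrial serine carrier SFXN1 fell by 0.23, the aspartate and glutamate carriers SLC25A13 and SLC25A12 by 0.27 and 0.22, and the ornithine carrier SLC25A15 by 0.25. With GC content and length corrected 1 rose, SLC25A29, and 1 fell, SFXN1, beside 10.8% higher and 11.4% lower of all genes. PQLC2 and SLC25A15 did not pass with DESeq2 either (adjusted p = 0.0507 and 0.0614). Without DMSO replicate 1, 1 fell; without doxycycline replicate 3, 2 fell; and 1 rose without DMSO replicate 3 or without doxycycline replicate 1.

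**Figure D4:**
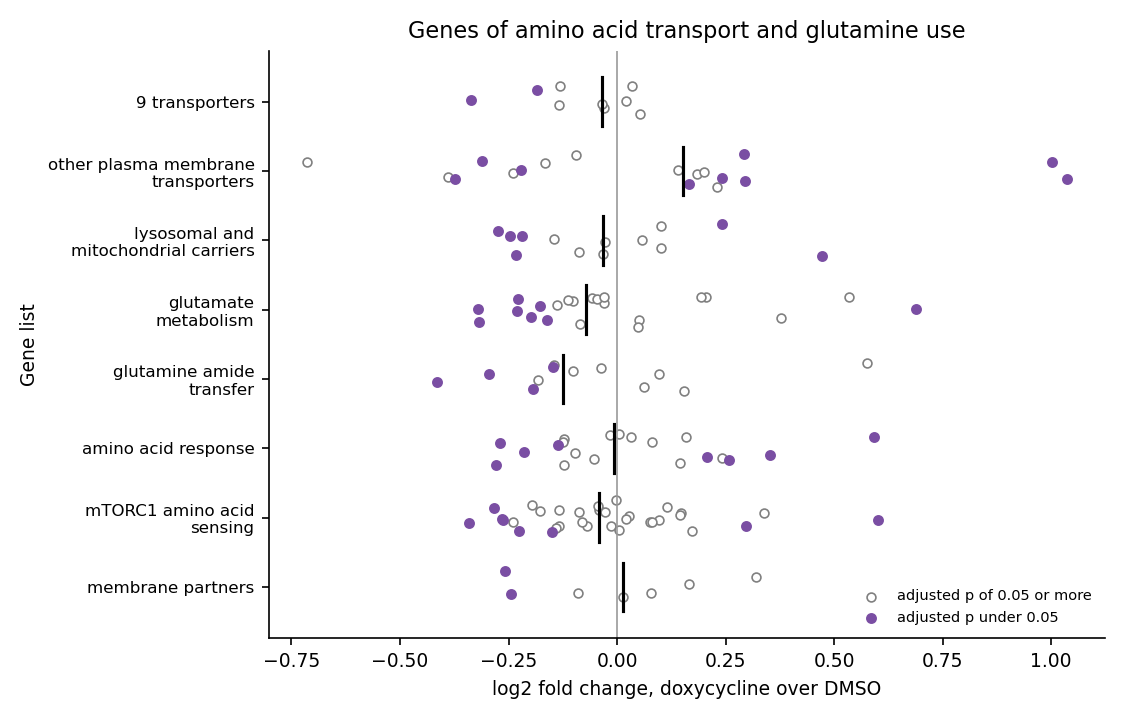
Log2 fold change, doxycycline over DMSO (x axis), of every tested gene in the 9 transporters and 7 related lists (rows), one point per gene; filled points have an adjusted p under 0.05 and the black bar is the median of the list. The median is -0.03 for the 9 transporters, 0.15 for the other plasma membrane transporters and -0.12 for enzymes that use the amide nitrogen of glutamine.

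Inside the cell, glutamine becomes glutamate, and its nitrogen and carbon pass on through aminotransferases and dehydrogenases. Of 22 enzymes of glutamate metabolism, all tested, 7 fell and 1 rose (31.8% lower and 4.55% higher), beside 13.8% higher and 15.5% lower of all tested genes, and their median was -0.07. GOT2, the mitochondrial aspartate aminotransferase, fell by 0.32 (SE 0.047), at 135 ± 1.92 CPM with doxycycline and 169 ± 1.55 CPM with DMSO (SD, n = 3 each; edgeR adjusted p = 2.18e-05). PSAT1, of serine synthesis, fell by 0.32, the ornithine aminotransferase OAT by 0.23, the glutamate-cysteine ligase subunit GCLM by 0.20 and the glutamate dehydrogenase GLUD1 by 0.18. The alanine aminotransferase GPT rose by 0.69, at 2.81 CPM with doxycycline and 1.74 CPM with DMSO. GLUL, which makes glutamine, was at 284 ± 0.709 CPM with doxycycline and 290 ± 6.09 CPM with DMSO (SD, n = 3 each) and was not called. With GC content and length corrected 6 fell and 1 rose, beside 11.4% lower and 10.8% higher of all genes. GOT2 fell there by 0.28 and PSAT1 by 0.15, and 3 of the 6 had not been called before, whereas OAT, GCLM and GLUD1 did not pass. The count of 1 higher became 2 without doxycycline replicate 3 and 0 without both doxycycline replicate 1 and DMSO replicate 2.

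Of 12 tested enzymes that use the amide nitrogen of glutamine, 4 fell and 0 rose (33.3% lower and 0% higher), beside 13.8% higher and 15.5% lower of all tested genes, and their median was -0.12. GATC, a subunit of the mitochondrial enzyme that makes glutamine on transfer RNA, fell by 0.42, and PPAT, the first enzyme of purine synthesis, by 0.29. CTPS1, which makes CTP, fell by 0.19 and GMPS, which makes GMP, by 0.15. ASNS, the asparagine synthetase, was at 7.68 ± 0.797 CPM with doxycycline and 7.17 ± 0.998 CPM with DMSO (SD, n = 3 each) and was not called. CTPS2 had 0 counts in every sample. With GC content and length corrected 5 fell and 0 rose, beside 11.4% lower and 10.8% higher of all genes. Of those 5, 2 had not been called before, and PPAT, whose groups overlapped, did not pass there (-0.10, edgeR adjusted p = 0.167). GMPS did not pass in 5 of the 15 alternatives, among them upper-quartile scaling (edgeR adjusted p = 0.121) and library size alone (0.0999). Without DMSO replicate 2 or without doxycycline replicate 2, 1 rose, as it did with RLE, upper-quartile or library-size scaling.

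Of 20 tested kinases, factors and targets of the amino acid response, 4 rose and 4 fell (20% each), beside 13.8% higher and 15.5% lower of all tested genes, and their median was -0.01. ATF4, its central factor, was at 471 ± 8.96 CPM with doxycycline and 477 ± 19.7 CPM with DMSO (SD, n = 3 each), which did not pass (log2 fold change -0.02, edgeR adjusted p = 0.840). DDIT4, an inhibitor of the growth kinase mTORC1, rose by 0.59, the phosphatase subunit PPP1R15A by 0.35, the leucine sensor SESN2 by 0.26 and CEBPB by 0.21. MTHFD2 and SHMT2, mitochondrial folate enzymes, fell by 0.28 and 0.21, the factor ATF5 by 0.27 and the kinase EIF2AK1 by 0.14. The groups overlapped for ATF5, at 85.4 to 97.6 CPM with doxycycline and 91.1 to 127 CPM with DMSO. ATF5 did not pass with DESeq2 (adjusted p = 0.186), nor with edgeR without DMSO replicate 3 (0.0778) or without doxycycline replicate 3 (0.0670). SESN2, CEBPB and EIF2AK1 did not pass with GC content and length corrected, where 4 rose and 4 fell, 2 and 1 of them not called before. Over all genes 10.8% were higher and 11.4% lower there. EIF2AK1 also did not pass when any sample but DMSO replicate 1 was left out. Without doxycycline replicate 3, 2 fell.

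Of 33 tested genes through which mTORC1 senses amino acids, 2 rose and 6 fell (6.06% and 18.2%), beside 13.8% higher and 15.5% lower of all tested genes, and their median was -0.04. SESN3, a relative of the leucine sensor SESN2, rose by 0.60, at 9.54 ± 1.10 CPM with doxycycline and 6.30 ± 1.21 CPM with DMSO (SD, n = 3 each; edgeR adjusted p = 5.07e-04). SEH1L, shared by the GATOR2 complex and the nuclear pore, fell by 0.34, the GTPases RRAGC and RHEB by 0.28 and 0.23, and LAMTOR5 and LAMTOR3, which hold the complex on lysosomes, by 0.27 and 0.26. After correction for GC content and length 1 rose, SESN3, and 4 fell, of which 2, SEH1L and LAMTOR5, had been called before. Over all genes 10.8% were higher and 11.4% lower after that correction. RRAGC (edgeR adjusted p = 0.0524), RHEB (0.0765) and LAMTOR3 (0.214) did not pass there. With upper-quartile scaling 4 rose and 5 fell.

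Of 7 membrane partners and regulators of transporters, 2 fell and 0 rose (28.6% lower and 0% higher), beside 13.8% higher and 15.5% lower of all tested genes, and their median was 0.01. LAPTM4B, a lysosomal membrane protein known to recruit LAT1 with CD98 to lysosomes, fell by 0.24 (SE 0.050), at 342 ± 15.0 CPM with doxycycline and 405 ± 9.53 CPM with DMSO (SD, n = 3 each; edgeR adjusted p = 6.10e-04). RNF5, a ubiquitin ligase known to act on SLC1A5 and SLC38A2 proteins, fell by 0.26, though its groups overlapped. It did not pass once GC content and length were corrected, where 1 fell beside 11.4% of all genes, nor with DESeq2 (adjusted p = 0.127). BSG, a membrane partner of CD98, was at 427 ± 29.8 CPM with doxycycline and 423 ± 30.8 CPM with DMSO (SD, n = 3 each) and was not called.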

How the data were processed

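Gene expression was measured by RNA-seq in 3 doxycycline and 3 DMSO samples. The authors deposited raw counts per gene, not normalized, and the output of their DESeq2 comparison. Per gene, the deposited output holds the log2 fold change, its standard error, the mean signal (normalized counts), the Wald test score, the p-value and the adjusted p-value. STAR 2.5.2a, featureCounts, DESeq2 1.12.4 and hg19 are named without roles per the submitters' processing notes, and the annotation and strand setting are not given in the sources used here. Total counts were 23121255 to 26214598 per sample.

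Genes were kept with filterByExpr (at least 99.88% of counts), scaled with TMM and tested with edgeR 4.0.16 (R 4.3.3; quasi-likelihood, treatment as sole term; 15492 genes; Benjamini-Hochberg adjusted p under 0.05). SE was taken from the log2 fold change and the F statistic. CPM is relative to the kept counts of a sample multiplied by its TMM factor. On simulated counts of 15300 genes for doxycycline over DMSO, 78.4% of 1.25-fold and 97.7% of 1.5-fold changes were called with the correct sign. In the same run 10 unchanged genes were called. These counts were drawn with the dispersions that edgeR fitted, with 44 to 55 genes changed per fold size and no GC trend. The rates may therefore not hold for the real samples. Within-group pairs differed by more than sampling noise (chi-square per gene 2.71 to 7.11), so all 6 samples were used. For the correction, log2 CPM deviations (prior count 2) were fitted per library with splines of GC content and log2 length (5 degrees of freedom each; GENCODE 29, matched for 97.1% of tested genes) and the trend entered as an offset. Alternatives were DESeq2 1.42.0, RLE, upper-quartile and library-size scaling, no filter, each sample left out, DMSO replicate 2 with doxycycline replicate 1 left out, a replicate block, and the correction with and without the block.

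The transporters, the 7 related lists and the alternatives were chosen with earlier results of these data known. The text names every transporter, MYC, up to 5 called genes per list and direction by smallest p, and the 5 genes nearest to each called transporter. GLUL, ATF4, ASNS, SLC7A11, BSG and CTPS2 are named outside that rule, after their values were seen, as are genes that overlap or copy a transporter. Some results are not reported here.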

Additional observations from a re-analysis of the deposited data

How the results depend on the processing

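The count of transporters called lower, 2 as reported, was 1 for upper-quartile scaling, 1 for library size alone, 5 with GC content and length corrected and 4 with that correction and a replicate block. Leaving out 1 sample at a time it ran from 1 to 3. It was 2 with DESeq2, RLE scaling and the block alone, and 0 transporters were called higher under any of the 15 alternatives. SLC1A5 turned to -0.11 and SLC7A5 to -0.13 with the correction, both with and without the block. Of the 5 called with the correction, SLC1A5 did not pass once the block was added (edgeR adjusted p = 0.0574). The cause of these shifts was not tested. SLC38A5 was called lower under all 15. Genes called lower over the whole series numbered 1585 with upper-quartile scaling, which moved the median of all genes to 0.05. Deviations of same-numbered samples from their group means had r of -0.06, -0.23 and 0.09 over 10864 genes for numbers 1, 2 and 3. The labels do not say whether same-numbered samples were handled together, and these values cannot decide it. With the replicate block 2006 genes were higher and 2200 lower, and the same 2 transporters were called. Samples did not all correlate best with their own number. Low counts limited no transporter: the least had 627 counts in a sample.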
